A study of Homo sapiens with 4 samples.

Results

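The genes described here are 4 mucins (MUC1, MUC5AC, MUC5B and MUC16), the mucin folding factor AGR2 with its relative AGR3, and the transcription factor SPDEF. They were chosen by symbol, and each of the 7 matched 1 row of the 57820 genes in the deposited table. The table holds 4 RNA-seq libraries of A549, an established human lung adenocarcinoma line whose cells the series calls NRF2-activated. Of these, 1 library came from cells given CEBPB siRNA-1, 1 from cells given CEBPB siRNA-2 and 2 from cells given control siRNA. All were transfected and cultured alike, with fresh medium after 24 h and harvest another 24 h later. CEBPB encodes C/EBP beta, a leucine zipper transcription factor, and the question of the series is which transcripts change when it is depleted. A549 is 1 line, each CEBPB siRNA was sequenced in 1 library, and the labels do not say whether the controls were separate cultures. Every p-value below therefore rests on the spread among 4 libraries alone, which may be technical between the controls and which holds the difference between the siRNAs in the other group.

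Mucins are large glycoproteins whose serine- and threonine-rich repeats carry dense O-linked sugars. MUC5AC and MUC5B are secreted, link through disulfide bonds into long polymers and form the gel of airway mucus. MUC1 and MUC16 are anchored in the cell membrane and line the epithelial surface. AGR2 is a protein disulfide isomerase of the endoplasmic reticulum, where mucins fold, and in mice its loss depletes intestinal mucin. SPDEF is an ETS family factor that drives goblet cell differentiation in mice.

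Values are in FPKM (reads per kilobase of transcript length, adjusted for how deeply each library was read). The libraries summed to between 494066 and 528606 FPKM and listed 13752 to 14325 genes at 1 FPKM or more. Summed over genes, the authors' mean normalized counts come to 8341083, the closest the table comes to a depth. Low FPKM values gave depths of 0.967 to 1.02 relative to control 1. CEBPB itself was at 12.9 FPKM with siRNA-1 and 10.97 FPKM with siRNA-2, against 78.7 and 80.9 FPKM in the controls. Its log2 change was -2.65 ± 0.17 (SE, limma adjusted p = 0.0167). Epithelial keratins were among the most abundant transcripts, with KRT8 at 1226 and 1467 FPKM with the CEBPB siRNAs and 1835 and 2517 FPKM in the controls. EPCAM was low, at 1.77 and 1.03 FPKM against 1.92 and 3.52 FPKM in the controls. The surfactant genes that define alveolar type II cells were listed at 0 in every library, except SFTPC at 0.914 FPKM in control 1.

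The control cells expressed these genes over a wide range. AGR2 and MUC5B stood highest, with AGR2 at rank 549 and 403 of all genes in the 2 controls and MUC5B at rank 525 and 539. Their control levels overlapped, at 119 and 162 FPKM for AGR2 and 124 and 128 FPKM for MUC5B, so neither was above the other beyond the spread. SPDEF (8.93 and 14.8 FPKM) and MUC5AC (9.84 and 9.07 FPKM) followed and also overlapped. MUC1 lay below them at 3.95 and 3.88 FPKM, and MUC16 far lower at 0.0638 and 0.0537 FPKM. AGR3 was listed at 0 in all 4 libraries, and its mean count in the authors' deposited table is 0. In the CEBPB siRNA libraries AGR2 (27.0 and 30.7 FPKM) lay above MUC5B (17.1 and 25.01 FPKM), both remained above the rest, and SPDEF overlapped MUC5AC and MUC1. MUC5B and AGR2 together made up 80.9% and 78.2% of the summed FPKM of the 7 genes with the CEBPB siRNAs, and 91.4% and 91.3% in the controls. Summed over the 7 genes, the level was 54.4 FPKM with siRNA-1 and 71.2 FPKM with siRNA-2, against 267 and 317 FPKM in the controls.

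**Figure D1:**
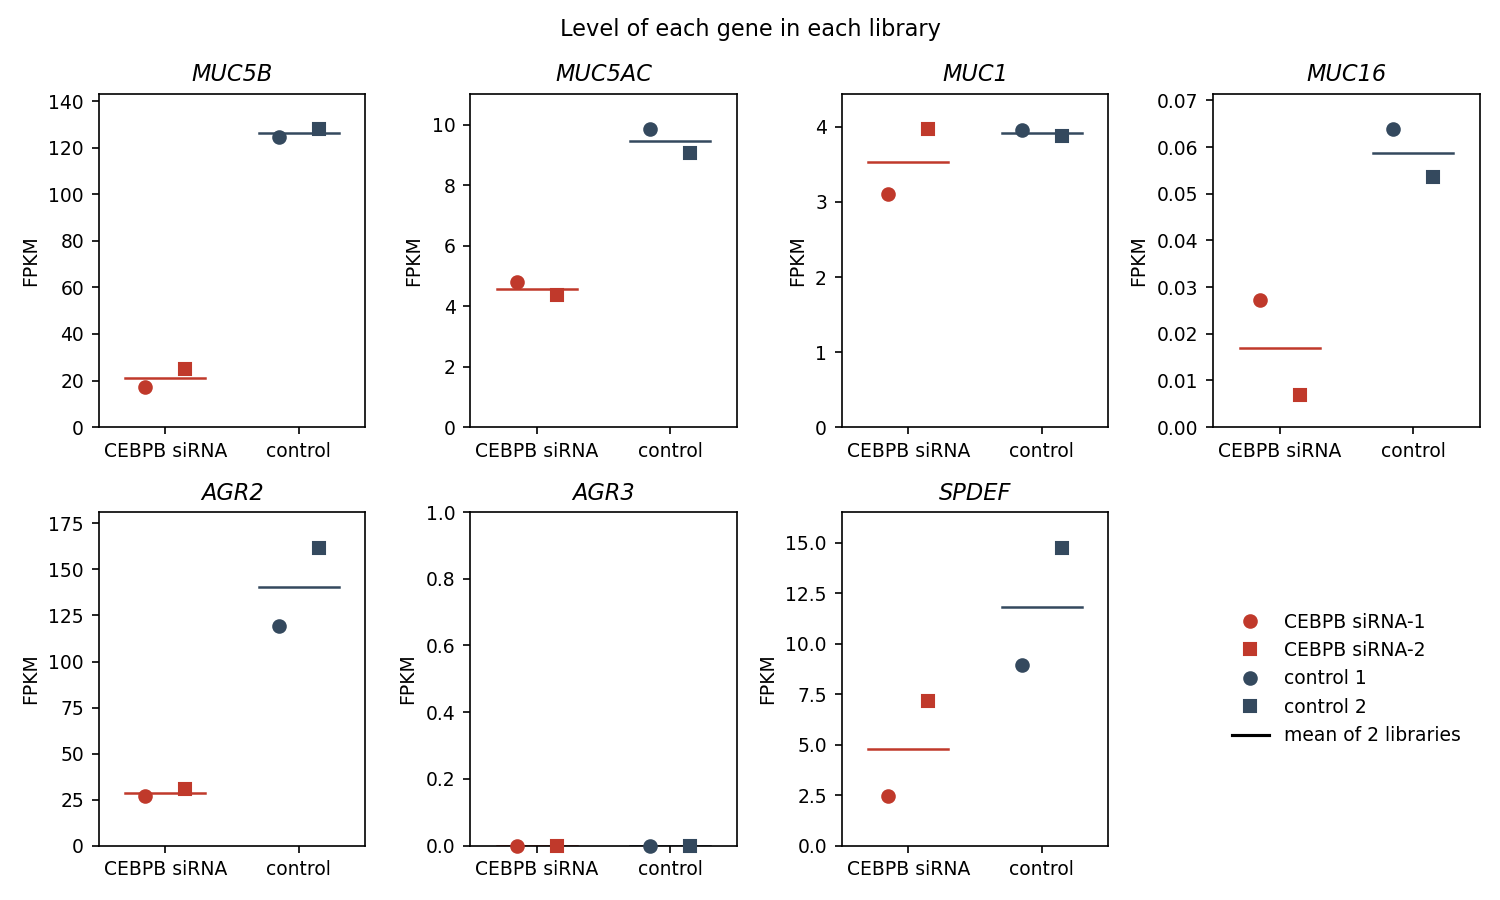
FPKM of each of the 7 genes (1 panel per gene, each axis from 0) in the CEBPB siRNA libraries on the left and the control libraries on the right; circles and squares are single libraries and lines the mean of 2. MUC5B and AGR2 lie below 31 FPKM in both CEBPB siRNA libraries and above 119 FPKM in both controls, while the MUC1 groups overlap and AGR3 is at 0 throughout.

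With CEBPB knocked down, the gel-forming mucin MUC5B and the folding factor AGR2 fell to between 13.5% and 21.8% of their control means. MUC5AC and SPDEF were also lower in both CEBPB siRNA libraries than in either control, but neither passed the threshold of an adjusted p below 0.05 in limma, a linear model fitted across all genes. MUC1 overlapped the controls. Of the 7 genes, 5 reached the mean of 1 FPKM needed for that test, and 2 of these 5 were called lower and 0 higher. Of all 14068 genes tested, 0.171% were called lower and 0.0640% higher. In the authors' deposited table, 6 of the 7 genes have an adjusted p, and 3 (MUC5B, AGR2 and MUC5AC) are below 0.05, all lower. Of all genes with an adjusted p there, 4.14% are called and 1.42% are called lower. At an unadjusted limma p below 0.05, 4 of the 5 tested genes were lower, as were 5.13% of all genes tested (12.2% changed in either direction). The libraries did not overlap, with the CEBPB siRNA libraries lower, for 4 of the 5 tested genes, where this held for 21.0% of all genes tested (44.5% in either direction). The median log2 change of the 5 was -1.24, and that of all genes tested was 0.001. In these RNA pools, fewer cells expressing a gene and less RNA per cell cannot be told apart.

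MUC5B (ENSG00000117983.13), the major gel-forming mucin of the distal airways, was at 17.1 FPKM with siRNA-1 and 25.01 FPKM with siRNA-2, against 124 and 128 FPKM in the controls. Both CEBPB siRNA libraries lay far below both controls, and the controls differed from each other by less than 4 FPKM. The group means were 21.03 ± 5.62 FPKM with CEBPB siRNA and 126 ± 2.45 FPKM in the controls (SD, n = 2 each). The difference was -2.55 on the log2(FPKM + 1) scale, where changes of low genes come out too small, with a standard error of 0.22, a 95% interval of -3.09 to -2.01 and a limma adjusted p of 0.0275. A mean normalized count of 6998 underlies the -2.57 (adjusted p = 9.5e-24) of the authors' deposited table. MUC5B no longer passed in limma when control 1 was left out (adjusted p = 0.530), nor without control 2 (0.392) nor with no filter on low values (0.352), while the change stayed between -2.57 and -2.53.

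MUC5AC (ENSG00000215182.6), the gel-forming mucin of surface goblet cells, was at 4.78 FPKM with siRNA-1 and 4.37 FPKM with siRNA-2, against 9.84 and 9.07 FPKM in the controls. The groups did not overlap, and each siRNA library held 50.6% or 46.2% of the control mean. The log2 difference was -0.91 ± 0.19 (SE), with a 95% interval of -1.37 to -0.44, and missed the threshold (limma adjusted p = 0.165). The authors' deposited table calls it lower (log2 change -0.89, adjusted p = 0.0402). It also passed in limma without siRNA-2 (adjusted p = 0.0496) and in a fit with 3 groups (0.0413).

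The proportion of the 2 secreted mucins differed between the groups. There were 3.57 FPKM of MUC5B per FPKM of MUC5AC with siRNA-1 and 5.72 with siRNA-2, against 12.6 and 14.1 in the controls. These ratios did not overlap between the groups, and with 2 libraries per group an exact two-sided permutation test cannot go below p = 0.333. Levels between the genes carry a further limit. The authors' mean count of MUC5AC per FPKM was that of a transcript of 4.69 kb, or 26.9% of its longest basic transcript in GENCODE 29 (17.4 kb). For MUC5B it was 63.6% of 17.9 kb and for MUC1 40.6% of 4.17 kb, while for AGR2 it was 106% and for SPDEF 114%. Over 9041 genes with a mean count of at least 100, the median was 97.4% and the quartiles 79.7% and 109%. GENCODE 29 is not stated to be the annotation the authors used, and whether the length behind a gene's FPKM was the same in every library was not tested.

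MUC1 (ENSG00000185499.12), a membrane mucin with a signalling cytoplasmic tail, was at 3.10 FPKM with siRNA-1 and 3.97 FPKM with siRNA-2, against 3.95 and 3.88 FPKM in the controls. The siRNA-1 library was the lowest and the siRNA-2 library the highest of the 4. The log2 difference was -0.12 ± 0.22 (SE), with a 95% interval of -0.66 to 0.41 and a limma adjusted p of 0.868. On this scale, where changes of low genes come out too small, the interval leaves room for a decrease of 0.66. It does not reach the estimates of MUC5B or AGR2. In the authors' deposited table the change of MUC1 is -0.33 with a standard error of 0.51 (adjusted p = 0.999). Without siRNA-1 the limma difference was 0.014.

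MUC16 (ENSG00000181143.11), a very large membrane mucin of mesothelium and ocular and reproductive tract surfaces, was at 0.0272 FPKM with siRNA-1 and 0.00697 FPKM with siRNA-2, against 0.0638 and 0.0537 FPKM in the controls. All 4 values lay far under the filter of 1 FPKM. The mean normalized count of 15.6 in the authors' deposited table shows how few reads stand behind them. That table gives a log2 change of -1.69 with a standard error of 0.93 and an adjusted p of 0.522, so no change was detectable at this depth.

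**Figure D2:**
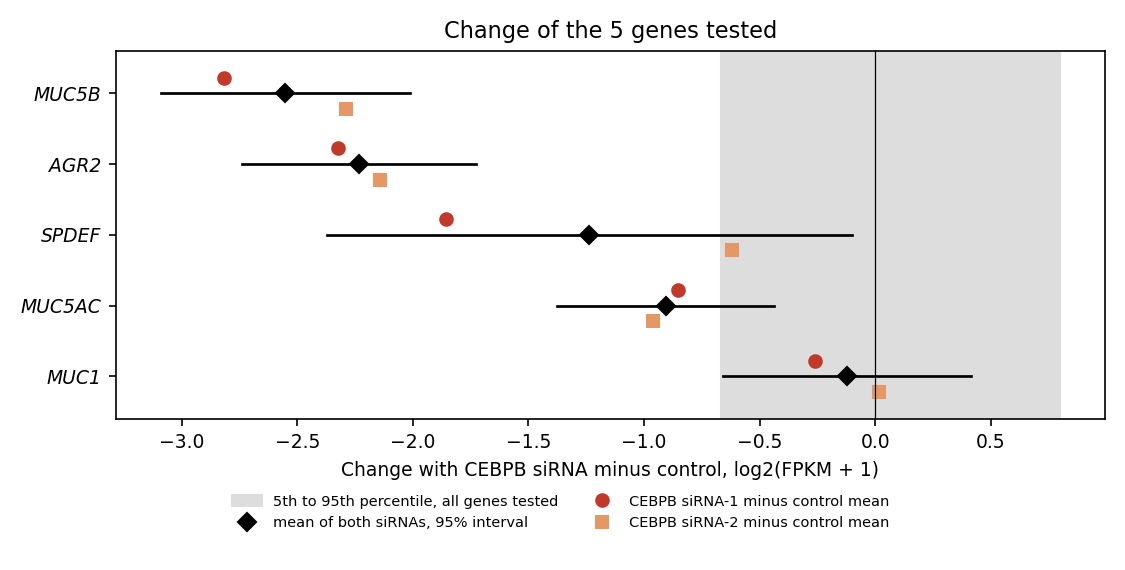
Change of the 5 tested genes with CEBPB siRNA minus control on the log2(FPKM + 1) scale: diamonds are the estimate with its 95% interval, circles siRNA-1 and squares siRNA-2, each minus the mean of the same 2 controls, and the grey band spans the 5th to 95th percentile of all genes tested. MUC5B (-2.55) and AGR2 (-2.23) lie far left of the band's edge at -0.67, and the interval of MUC1 spans 0.

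AGR2 (ENSG00000106541.7) was at 27.0 FPKM with siRNA-1 and 30.7 FPKM with siRNA-2, against 119 and 162 FPKM in the controls. The siRNA libraries were close to each other and the controls were not, yet the groups were well apart. The group means were 28.8 ± 2.60 FPKM with CEBPB siRNA and 141 ± 29.99 FPKM in the controls (SD, n = 2 each). The log2 difference was -2.23 ± 0.20 (SE), with a 95% interval of -2.74 to -1.73 and a limma adjusted p of 0.0292. In the authors' deposited table the log2 change is -2.41 (adjusted p = 3.3e-16). AGR2 missed the limma threshold without control 1 (adjusted p = 0.461), without control 2 (0.392), with no filter on low values (0.370) and with no intensity trend (0.0520), with changes of -2.45 to -2.02. AGR2 stood at 1.58 and 1.23 FPKM per FPKM of MUC5B with the CEBPB siRNAs, and at 0.959 and 1.27 in the controls, so the proportion of folding factor to mucin overlapped between the groups.

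AGR3 (ENSG00000173467.4), which encodes a related disulfide isomerase known in ciliated airway cells, lies next to AGR2 on chromosome 7. It was listed at 0 in every library, so no direction can be given for it. The upstream windows of the pair are shown because AGR2 fell strongly while its neighbour was listed at 0 in every library. Each runs from 250 bases before to 50 bases after the gene start, from RefSeq on GRCh38.p14 and on the minus strand, at chr7:16804950-16805249 for AGR2 and chr7:16881934-16882233 for AGR3. Capitals mark matches to the C/EBP motif TTGCNNAA on either strand (TTNNGCAA on the other).
AGR2: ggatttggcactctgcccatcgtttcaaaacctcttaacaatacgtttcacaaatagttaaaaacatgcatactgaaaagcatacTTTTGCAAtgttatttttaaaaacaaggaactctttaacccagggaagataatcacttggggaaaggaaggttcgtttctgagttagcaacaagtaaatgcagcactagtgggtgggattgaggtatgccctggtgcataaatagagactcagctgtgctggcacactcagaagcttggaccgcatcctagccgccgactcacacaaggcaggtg
AGR3: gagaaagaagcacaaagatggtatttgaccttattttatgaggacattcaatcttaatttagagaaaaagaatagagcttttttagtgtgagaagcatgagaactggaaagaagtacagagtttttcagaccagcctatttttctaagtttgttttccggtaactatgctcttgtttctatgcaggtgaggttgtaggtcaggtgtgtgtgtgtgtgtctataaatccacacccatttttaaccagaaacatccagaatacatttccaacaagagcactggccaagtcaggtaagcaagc
The AGR2 window holds 1 match, 165 to 158 bases before the start, and the AGR3 window none. Over all 35116 windows of this length, 10.5% hold at least 1 match. RefSeq windows were found for 5 of the 7 genes, MUC5AC and MUC5B aside. Those of SPDEF and MUC1 held no match, and of the 2 MUC16 windows 1 did. The forkhead motif TGTTTAC, in 3.42% of all windows, matched none of them, and the antioxidant response element motif TGACNNNGC, in 13.3% of all windows, matched the AGR3 window and 1 of MUC16, without overlapping a C/EBP match. Both strands were searched for each motif. No binding was measured in these libraries.

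SPDEF (ENSG00000124664.6) was at 2.46 FPKM with siRNA-1 and 7.16 FPKM with siRNA-2, against 8.93 and 14.8 FPKM in the controls. The groups did not overlap, but the siRNA-2 library came within 2 FPKM of control 1. The log2 difference was -1.24 ± 0.46 (SE), with a 95% interval of -2.37 to -0.10, and missed the threshold (limma adjusted p = 0.369). In the authors' deposited table the change is -1.36 (adjusted p = 0.101). Without siRNA-2 the difference was -1.85 and passed (adjusted p = 0.0294), and without siRNA-1 it was -0.62 (adjusted p = 0.454).

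The 2 CEBPB siRNAs were compared with each other in a 3-group fit that takes its spread from the controls alone, on the assumption that the lone library of each siRNA is as variable. In it 0 of the 5 tested genes differed between siRNA-1 and siRNA-2, where 0.441% of all genes tested did. That share is 62 genes, which became 1 with a pseudocount of 0.1 and 163 with median-of-ratios scaling, with 0 of the 5 in each. The largest differences among the 5 were -1.24 for SPDEF (siRNA-1 minus siRNA-2, 95% interval -2.19 to -0.29) and -0.53 for MUC5B (-0.91 to -0.14). Differences of this size were not particular to them, with -1.25 for KRT18 and 1.51 for GALNT6. The share of all genes tested with such a difference was not counted. For AGR2 the difference was -0.18 (-0.81 to 0.45), for MUC5AC 0.11 (-0.46 to 0.68) and for MUC1 -0.28 (-0.89 to 0.34). These intervals do not show that the siRNAs acted alike. Set against the same 2 controls, MUC5B changed by -2.82 (siRNA-1) and -2.29 (siRNA-2), and AGR2 by -2.32 and -2.14. CEBPB itself was left at 16.2% (siRNA-1) and 13.7% (siRNA-2) of the control mean.

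In genome order, MUC5AC and MUC5B stand next to each other in a cluster of gel-forming mucins on chromosome 11, after MUC6 and MUC2. MUC6 (0.210 and 0.414 FPKM with the CEBPB siRNAs, 0.388 and 0.155 FPKM in the controls) and MUC2 (at most 0.0478 FPKM) were under the filter. TOLLIP, an adaptor of innate immune signalling on the other side of MUC5B, was at 6.58 and 10.99 FPKM with the CEBPB siRNAs and at 16.3 and 14.4 FPKM in the controls. Its groups did not overlap, but it passed in neither test (log2 difference -0.78, limma adjusted p = 0.334; -0.83 and adjusted p = 0.142 in the authors' deposited table). Around AGR2, the tetraspanin gene TSPAN13 was at 3.01 and 5.23 FPKM with the CEBPB siRNAs and at 7.77 and 10.9 FPKM in the controls (log2 difference -1.03, limma adjusted p = 0.271). The xenobiotic receptor gene AHR was at 12.2 and 20.7 FPKM with the CEBPB siRNAs and at 26.2 and 25.7 FPKM in the controls (-0.67, adjusted p = 0.403). Neither passed in limma, nor in the authors' deposited table (adjusted p = 0.059 for TSPAN13 and 0.081 for AHR). Neighbours were taken as the nearest 2 protein-coding genes on each side. Those tested that are not themselves among the 7 genes did not pass in limma. In the same 2 regions BRSK2 (0.15) and BZW2 (-0.37) overlapped between the groups, and SNX13 (-0.22) was lower without overlap. Around MUC1, MUC16 and SPDEF, KRTCAP2 and C6orf106 were higher without overlap and ZNF558 and SNRPC lower. Over all genes tested, 21.0% were lower without overlap and 23.5% higher.

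**Figure D3:**
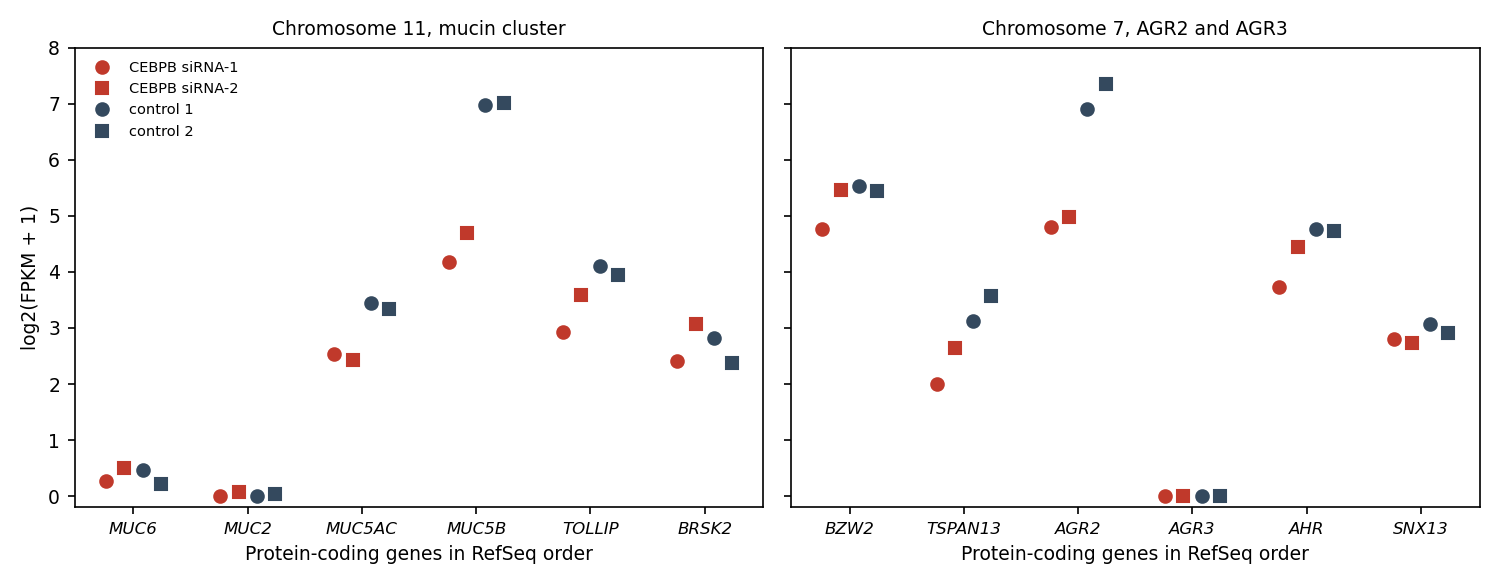
Level on the log2(FPKM + 1) scale of the protein-coding genes around MUC5AC and MUC5B (left) and around AGR2 and AGR3 (right), in gene order and not to scale; within each gene, CEBPB siRNA libraries are red and to the left of the dark control libraries. MUC5B and AGR2 show the widest gap between the groups in their panels, with smaller gaps at MUC5AC, TOLLIP, TSPAN13, AHR and SNX13.

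The genes whose pattern over the 4 libraries lay nearest to that of MUC5B, among 9510 genes averaging 5 FPKM or more, were FGA, AHCYL2 and TM4SF20. Likeness was the Euclidean distance between log2(FPKM + 1) values centred on each gene's mean, and these distances were 0.269, 0.279 and 0.340. The values were not scaled, so a gene comes near mainly by a change of like size, and shared regulation was not tested. FGA (-2.36, limma adjusted p = 0.0554) and TM4SF20 (-2.66, adjusted p = 0.0787) did not pass in limma. The nearest to AGR2 were AKR1C1 (0.201), AHCYL2 (0.217) and RBP4 (0.317). AGR2 was the 9th nearest gene to MUC5B and MUC5B the 8th nearest to AGR2, at a distance of 0.491. FGA, the fibrinogen alpha chain, was at 15.4 and 25.2 FPKM with the CEBPB siRNAs and 112 and 99.1 FPKM in the controls. AHCYL2, a relative of S-adenosylhomocysteine hydrolase, was at 3.44 and 4.42 FPKM against 22.5 and 26.9 FPKM in the controls. AKR1C1 belongs to a family of near-identical paralogs that share reads, so its own level is uncertain.

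Of 14 further mucin symbols, which match 15 rows, only MUC13 reached the filter, and 5 rows were listed at 0 in all libraries. MUC13, a membrane mucin of the gut surface, was at 3.59 and 2.52 FPKM with the CEBPB siRNAs and 6.28 and 5.96 FPKM in the controls, without overlap. Its log2 difference was -0.82 ± 0.23 (SE, limma adjusted p = 0.255), and the authors' deposited table gives -1.17 with an adjusted p of 0.0503, just outside the threshold. MUC4 stayed at or under 0.0497 FPKM and MUC20 at or under 0.612 FPKM in every library.

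Of 18 tested disulfide isomerases and oxidases, limma called 0. At an unadjusted p below 0.05 it had 1 higher and 0 lower, where 12.2% of all genes tested passed in either direction. Of the 18, 1 rose (QSOX1, a sulfhydryl oxidase of the late secretory pathway) and 0 fell in the authors' deposited table, where 2.71% of all genes are called higher. The libraries did not overlap for 4 of the 18 that were higher and 1 that was lower. Over all genes tested this held for 23.5% (higher) and 21.0% (lower). Their median log2 change was 0.004 and their lowest -0.32. QSOX1 was at 18.1 and 19.9 FPKM with the CEBPB siRNAs and 12.4 and 9.80 FPKM in the controls (log2 change 0.91 and adjusted p = 0.0041 in the authors' deposited table). TXNDC12, which is related to AGR2, was at 27.4 and 24.9 FPKM with the CEBPB siRNAs and 25.9 and 28.96 FPKM in the controls. P4HB, the archetypal disulfide isomerase, was at 364 and 388 FPKM against 354 and 356 FPKM in the controls.

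Of 18 tested O-glycosylation genes, whose products add and extend the sugars of mucins, limma called 0. At an unadjusted p below 0.05 it had 2 lower and 5 higher, against 12.2% of all genes tested in either direction. The authors' deposited table has 3 higher and 0 lower of 24 with an adjusted p, where 2.71% of all genes are called higher. The 3 were GALNT6, GALNT10 and GALNT2, all enzymes that attach the first sugar. GALNT6 was at 11.5 and 3.40 FPKM with the CEBPB siRNAs and 0.840 and 0.871 FPKM in the controls (2.72 and adjusted p = 1.8e-05 in the authors' deposited table). GALNT10 was at 60.2 and 59.9 FPKM with the CEBPB siRNAs and 32.1 and 31.3 FPKM in the controls (0.89, adjusted p = 0.0018 there). GALNT4 was at 2.83 and 3.06 FPKM against 7.39 and 7.89 FPKM in the controls, with a limma adjusted p of 0.120. Its mean normalized count in the authors' deposited table is only 4.53, with no adjusted p, so few reads were counted for it and its FPKM is uncertain. The list's median log2 change was 0.15.

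Among 10 tested transcription factors known in secretory epithelium, limma called 0. It had 4 lower and 0 higher at an unadjusted p below 0.05, where 5.13% of all genes tested were lower. FOXA1, KLF5 and XBP1 fell in the authors' deposited table and 0 rose, of 11 with an adjusted p there. Among all genes with an adjusted p there, 1.42% are called lower. The forkhead factor FOXA1 was at 4.53 and 3.58 FPKM with the CEBPB siRNAs and 9.48 and 11.4 FPKM in the controls (-1.27, adjusted p = 0.0048 there). KLF5, a Kruppel-like factor, was at 13.6 and 21.6 FPKM with the CEBPB siRNAs and 39.0 and 47.7 FPKM in the controls (-1.34, adjusted p = 0.00025 there). XBP1, a regulator of secretory capacity, was at 28.4 and 33.7 FPKM against 52.8 and 64.3 FPKM in the controls (-0.94, adjusted p = 0.010 there). FOXA2 and FOXA3 overlapped between the groups, at 13.6 and 18.3 FPKM against 12.3 and 16.1 FPKM in the controls for FOXA2. NKX2-1, the lung lineage factor, and the mucous cell stress sensor ERN2 were listed at 0 throughout.

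The products that normally accompany mucins were nearly absent. Of 20 genes known in goblet, club and gland cells, 15 were listed at 0 in all libraries, TFF1, SCGB1A1, CLCA1 and BPIFB1 among them, and none reached the filter. TFF1 nevertheless has a mean normalized count of 3.70 in the authors' deposited table, so a few reads were counted for it. Summed over the list, the 20 genes made up 1.08 and 1.73 FPKM with the CEBPB siRNAs and 1.06 and 0.359 FPKM in the controls. Of 10 tested genes for granule release and ion transport, limma called 0. At an unadjusted p below 0.05 it had 1 lower and 3 higher, against 12.2% of all genes tested in either direction. In the authors' deposited table RAB3D, a small GTPase of secretory granules, fell (4.95 and 5.600 FPKM with the CEBPB siRNAs, 11.2 and 13.1 FPKM in the controls). There P2RY2, the nucleotide receptor that triggers mucin release, rose (5.64 and 3.03 FPKM with the CEBPB siRNAs, 1.28 and 1.31 FPKM in the controls). That is 1 lower and 1 higher of 13 with an adjusted p there, where 1.42% of all genes are called lower and 2.71% higher. Of 4 tested genes for shedding or binding of membrane mucins, limma called 0. At an unadjusted p below 0.05 it had 1 higher and 0 lower, against 12.2% of all genes tested in either direction. The libraries did not overlap for 3 of the 4, all higher, where 23.5% of all genes tested were higher without overlap. The authors' deposited table calls 1 of 5 with an adjusted p, the metalloprotease ADAM9, which rose. Among all genes with an adjusted p there, 2.71% are called higher. ADAM9 was at 291 and 186 FPKM with the CEBPB siRNAs and 114 and 101 FPKM in the controls.

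**Figure D4:**
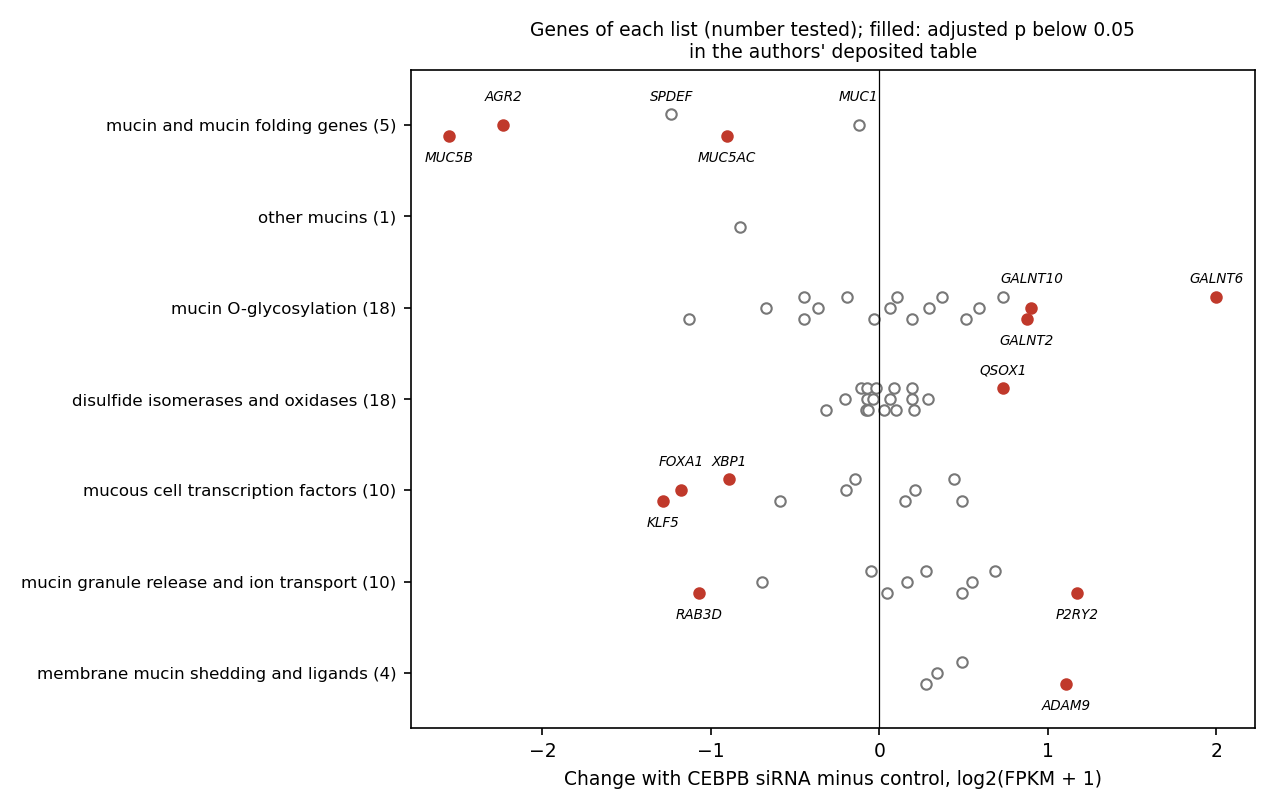
Log2 change with CEBPB siRNA minus control of each tested gene in 7 lists (1 point per gene, number tested in brackets, points staggered for legibility); filled points have an adjusted p below 0.05 in the authors' deposited table. MUC5B and AGR2 lie lowest, below -2, while the 18 disulfide isomerases and oxidases lie between -0.32 and 0.73.

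Of the 5 epithelial markers, 3 were lower without overlap (KRT8, KRT18 and EPCAM) and 1 higher (KRT19). Over all genes tested, 21.0% were lower without overlap and 23.5% higher. The 5 markers summed to 1824 and 2841 FPKM with the CEBPB siRNAs and 3599 and 5058 FPKM in the controls. All 5 have an adjusted p in the authors' deposited table, where KRT18 alone is called, as lower (log2 change -1.21, adjusted p = 0.032). Among all genes with an adjusted p there, 1.42% are called lower. Markers of other cell types were mostly low. The alveolar type II gene ABCA3, at 24.8 and 21.99 FPKM against 14.6 and 11.2 FPKM in the controls, and the basal cell gene DST, at 23.01 and 18.2 FPKM against 13.7 and 8.97 FPKM, were the tested ones of their lists. Both rose in the authors' deposited table, where 2.71% of all genes are called higher. ABCA3 rose by 0.79 on the log2 scale (adjusted p = 0.047 there) and DST by 0.9997 (adjusted p = 0.028). Of 7 leukocyte genes, 6 were listed at 0 in all libraries, PTPRC among them, and CD68 alone was at 16.8 and 4.69 FPKM with the CEBPB siRNAs and 7.09 and 9.72 FPKM in the controls. The mean normalized count of CD68 in the authors' deposited table is only 0.754, so almost no reads were counted for it and its FPKM is uncertain. The 6 ciliated cell genes summed to 4.03 and 1.84 FPKM with the CEBPB siRNAs and 2.61 and 2.03 FPKM in the controls. The 6 fibroblast and endothelial genes found summed to 4.33 and 2.23 FPKM against 0.734 and 0.592 FPKM in the controls, nearly all of it COL1A1, while 3 were at 0. COL1A1 rose in the authors' deposited table (log2 change 1.88, adjusted p = 0.0062) and is the only gene of this list with an adjusted p there. The part of these genes in the mucin results was not tested.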

How the data were processed

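Total RNA of A549 cells was read as 76-base single-end reads from strand-specific libraries, per the labels. Per the submitters' processing notes, which assign no roles, the tools were DESeq2 1.26.0, HTSeq 0.13.5, StringTie 2.1.4 and STAR 2.7.0d, and the build was hg19. The deposited per-library values were taken as FPKM, since the file headers name no unit and the columns have unequal sums, unlike TPM. Per the file headers, the authors' other columns are a mean normalized count (a signal over all 4 libraries), a log2 fold change with its standard error, a Wald score, and a p-value with its adjusted p-value; these were quoted, not recomputed. The sign of that fold change against the FPKM shows CEBPB siRNA over control.

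The design named a test for counts or, for normalized values, limma; the table held FPKM. Thus log2(FPKM + 1) of the 14068 genes averaging 1 FPKM or more was fitted in R 4.3.3 by limma 3.58.1, using an intensity trend, with Benjamini-Hochberg adjustment over all of them and a threshold of 0.05. Residual degrees of freedom numbered 2, to which the prior added 3.61. The fit was run on simulated data whose noise was independent and alike in every library. That run cannot show how the fit does with different siRNAs in a group or with technical controls. The labels give no batch. The 7 genes, the gene lists and the tests were chosen with earlier results of these data known. Of each list, up to 4 genes past the threshold, or the one with the smallest p, were named, together with CEBPB and the 3 genes nearest in pattern to MUC5B and to AGR2; other genes were chosen after their values were seen. Lists are described by counts and medians only. Promoter windows and gene order came from RefSeq (GRCh38.p14), used for sequence and neighbours only.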

Additional observations from a re-analysis of the deposited data

How the results depend on the processing

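Of 13 alternatives to the limma fit, the direction held for MUC5B, AGR2, MUC5AC and SPDEF in all in which they were tested. The log2 change of MUC1, -0.12 as reported, was 0.014 without siRNA-1 and -0.26 without siRNA-2. The number of the 7 genes called lower was 2 as reported, 0 with no filter and 1 with no intensity trend, and lay between 0 and 4 with 1 library left out (0 without either control, 4 without siRNA-2). Over all genes, 24 were called lower and 9 higher. With no filter both counts were 0 (2438 at an unadjusted p below 0.05 among 27320 genes). With 3 groups they were 433 and 538. With 1 library left out they lay between 0 and 894 lower and between 0 and 870 higher: both were 0 without control 1 (736 at an unadjusted p below 0.05) or control 2 (685), 44 and 28 without siRNA-1, and 894 and 870 without siRNA-2. The causes were not tested.

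The replicate block gave 14 genes lower and 11 higher and moved no call among the 7 genes. The shared numbers are not stated to pair the libraries, and deviations from the group means correlated at 0.0754 across genes. Between the siRNAs, 62 genes were called, 1 with a pseudocount of 0.1 and 163 with median-of-ratios scaling, and 0 of the 7 in each. Without a control that contrast has no residual spread and gave values with no test. Counts per library were not used here, and at 15.6 mean counts MUC16 is limited by depth.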
